A study of Canis lupus familiaris with 18 samples.

Results

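In dog kidney epithelial cells with and without a light-activated adenylyl cyclase, 53 genes held a nearly constant share of the sequenced gene reads across both lines and 3 light doses, and they are described here as a candidate reference set. They were chosen on CPM (a gene's reads scaled to 1000000 gene reads of its library), averaged in each of 6 groups. A member had a mean of at least 100 CPM in every group, a mean under 1000 CPM in dark bPAC cells, and a largest group mean at most 25% above its smallest. Another 37 consecutive gene IDs were left out by the rule. The level conditions were met by 982 of the 32220 gene IDs, and 53 of these, or 5.40%, met the limit on the ratio. The closeness of the group means is therefore how the genes were picked and not a finding, and it holds for shares of reads. On a scale set by the bulk of the genes, the fitted level was higher in bPAC high light than in bPAC dark for 53 of 53. This direction is nearly fixed by the rule, which keeps the shares close, together with the different scale factors of these groups. Of the 53, 8 passed the test, against 24.6% of all tested genes. The median log2 fold change was 0.31 for the members and 0.28 for the other genes of the level range.

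The study compared MDCKI cells carrying bPAC with parental MDCKI cells. Both lines were plated in medium with 0.5% serum and, 16 h later, received no light, a low dose or a high dose over 2 h. There were 10 bPAC libraries, of which 3 were dark, 4 from low light and 3 from high light, and 8 parental libraries, of which 3, 3 and 2 were from these conditions. Libraries were made from total RNA with a kit that reads the 3′ ends of transcripts. The sources used here give neither the promoter that drives bPAC nor whether the bPAC line is a single clone. Gene reads ranged from 2638511 to 9610144 per library, and reads aligned to more than 1 place, 37.5% to 44.4% of all reads, were not assigned to genes, so genes with near copies are uncertain. Of the 18 libraries, bPAC low light 1 and 4 had the fewest members near their own mean; without both, the rule gave 52 genes, of which 43 were members. Whether the replicates are separate cultures is not stated in the labels, and the p-values rest on the spread among these libraries, which may be technical.

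MDCK cells form polarised sheets and are widely used to study how kidney epithelium handles hormones that act through cyclic AMP. bPAC is a bacterial enzyme that makes cyclic AMP under blue light; cyclic AMP releases the active subunits of protein kinase A, which phosphorylate many proteins, among them transcription factors of the CREB family. Measuring such a response by RNA needs genes that do not respond, since a level is always read against something else: against total reads, against the typical gene, or against chosen reference genes. Common reference genes encode parts of the cytoskeleton, glycolysis or the ribosome, and whether they stay constant has to be checked for each treatment. The files name genes by Ensembl ID only, and none of the IDs is paired with a symbol in the tables used here, so the members are given by ID, with no function, and the cell type could not be checked against its marker genes.

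The limit on the ratio cut through a continuous range. Of the 982 genes of the level range, 2 had a ratio of largest to smallest group mean of at most 1.1, 21 of at most 1.2, 274 of at most 1.5 and 680 of at most 2, and the median was 1.74. The members' ratios ran from 1.06, in ENSCAFG00000007145, to 1.249, in ENSCAFG00000030521. Just inside the limit with it was ENSCAFG00000029313 at 1.248, and just outside were ENSCAFG00000005776 at 1.254 and ENSCAFG00000000974 at 1.255. The pooled SD within groups of log2 CPM was 0.18 for ENSCAFG00000030521 and 0.21 for ENSCAFG00000029313. Just outside the limit it was 0.10 for ENSCAFG00000000974 and 0.34 for ENSCAFG00000005776. In spread among replicates, the genes just outside thus lay on either side of those just inside.

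Members were found at every level that the rule allows. Their mean over the groups was between 100 and 200 CPM for 22, between 200 and 500 CPM for 26 and above 500 CPM for 5. Of all genes of the level range in these classes, the members made up 7.21%, 5.21% and 2.81%. The least abundant was ENSCAFG00000006101, at a mean of 113 CPM, and the most abundant ENSCAFG00000003631, at 973 CPM. No member had fewer than 274 reads in any library. The group with the highest mean was bPAC dark for 8 members, bPAC low light for 6, bPAC high light for 6, parental dark for 13, parental low light for 10 and parental high light for 10, so no group was the highest for most of them. The group with the lowest mean was bPAC low light for 15 members and one of the other 5 groups for between 5 and 10.

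Together the 53 genes held 1.43 ± 0.0213% of the gene reads (SD, n = 18 libraries), between 1.38% in bPAC low light 1 and 1.47% in parental high light 2. The share was 1.43 ± 0.00344% in bPAC dark (SD, n = 3), 1.41 ± 0.0182% in bPAC low light (SD, n = 4) and 1.43 ± 0.0175% in bPAC high light (SD, n = 3). In parental cells it was 1.43 ± 0.0301% in the dark (SD, n = 3), 1.44 ± 0.0186% in low light (SD, n = 3) and 1.45 ± 0.0257% in high light (SD, n = 2). The sum thus hardly moved between groups, which is largely built in, because the rule keeps the group means of each member close. Single members did move: in a single library, genes lay up to 1.02 below and 0.56 above their own mean on the log2 scale. A value was called within 25% of a mean when it was no more than 25% above or 20% below it. In bPAC dark 1 and in bPAC high light 1, 53 of the 53 were within 25% of their mean. In bPAC low light 1 and 4 it was 41 in each, the smallest number among the 18 libraries.

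**Figure D1:**
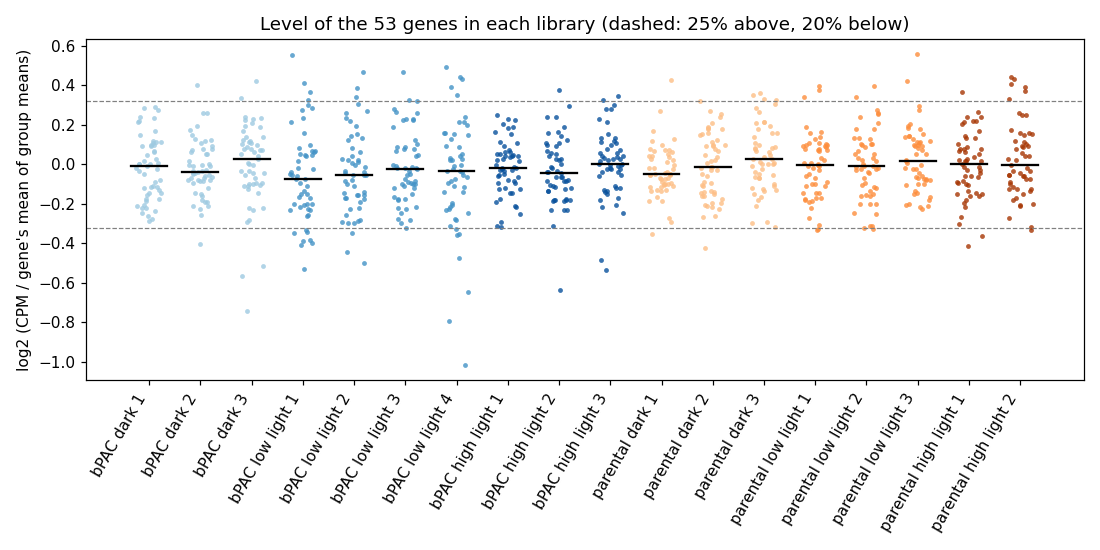
Level of each of the 53 genes in each of the 18 libraries, as the log2 ratio of its CPM to its own mean over the 6 group means; each point is a gene, the black bar is the library's median and dashed lines mark 25% above and 20% below. Medians lie between -0.07 and 0.03 in all libraries, while the points spread most in bPAC low light 4, down to -1.02.

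The members with the smallest pooled SD within groups still differed between some groups. ENSCAFG00000020066 was at 251, 282 and 269 CPM in bPAC dark, 289, 286, 314 and 308 CPM in bPAC low light and 306, 307 and 326 CPM in bPAC high light. In parental cells it was at 286, 305 and 314 CPM in the dark, 313, 337 and 293 CPM in low light and 295 and 287 CPM in high light. Its bPAC dark libraries were the lowest and lay below each illuminated bPAC library. ENSCAFG00000006101 was at 131, 123 and 119 CPM in bPAC dark, 111, 109.7, 99.9 and 98.0 CPM in bPAC low light and 99.9, 103 and 109 CPM in bPAC high light. In parental cells it was at 109, 102 and 109 CPM in the dark, 114, 112 and 113 CPM in low light and 130.1 and 119 CPM in high light. Its bPAC dark libraries lay above each illuminated bPAC library. ENSCAFG00000006101 had the smallest pooled SD within groups of the 53, 0.07 on the log2 scale, where the counting error of its reads alone gives 0.07. ENSCAFG00000032380, next in this order after these genes with an SD of 0.07, lay between 362 and 417 CPM in the 10 bPAC libraries and between 438 and 517 CPM in the 8 parental libraries, so the lines did not overlap although its ratio was 1.22.

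Other members met the rule on group means although libraries of a group lay far apart. ENSCAFG00000007145 had the smallest ratio of all, 1.06, yet it was at 166, 231, 240.2 and 111 CPM in bPAC low light, a 2.17-fold range among 4 libraries of 1 group. It was at 233, 173 and 180.0 CPM in bPAC dark and at 190.0, 207 and 196 CPM in bPAC high light. In parental cells it was at 208, 166 and 192 CPM in the dark, 193, 186 and 182 CPM in low light and 199 and 196 CPM in high light. The parental, the bPAC dark and the bPAC high light libraries were all inside the range of the bPAC low light libraries. ENSCAFG00000004844 had the largest pooled SD within groups, 0.41, and was at 112, 193, 176 and 72.8 CPM in bPAC low light, again with libraries 2 and 3 high and libraries 1 and 4 low. In bPAC dark it was at 173, 123 and 143 CPM, in bPAC high light at 153, 94.7 and 182 CPM, and in the parental libraries between 129.6 and 191 CPM. ENSCAFG00000011615, with the next largest SD of 0.30, was at 446, 364, 270.4 and 237 CPM in bPAC low light and had its lowest value, 205 CPM, in bPAC dark 3. ENSCAFG00000017915, the other member with a ratio under 1.1, lay between 103 and 150.0 CPM.

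For 47 of the 53 members, the largest ratio between 2 libraries of the same group was larger than the ratio of the group means. This was so for 36.5% of the 929 other genes of the level range. The rule caps the ratio of the group means for the members only, so this contrast is largely built in. The largest ratio within a group was found in bPAC low light, the group with most libraries, for 31 members and for 400 of the 929 other genes. The pooled SD within groups had a median of 0.16 on the log2 scale for the members (range 0.07 to 0.41) and 0.24 for the other genes of the level range (range 0.07 to 1.19). Counting error alone gave a median of 0.05 for both. The members' SD was at most 1.5 times the counting error for 2 of 53, and the median member stood at 3.70 times. Replicates of most members thus lay further apart than their read counts alone would give. Over all 18 libraries the ratio of a member's highest to lowest CPM had a median of 1.56 and ran from 1.28, in ENSCAFG00000013232, to 2.64, in ENSCAFG00000004844. It was at most 1.5 for 21 members and for 6 of the other genes, so a limit on single libraries would give a different list of 27. These spreads come from the libraries that chose the genes and are given without a test, because a gene with a small spread meets the rule more easily.

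**Figure D2:**
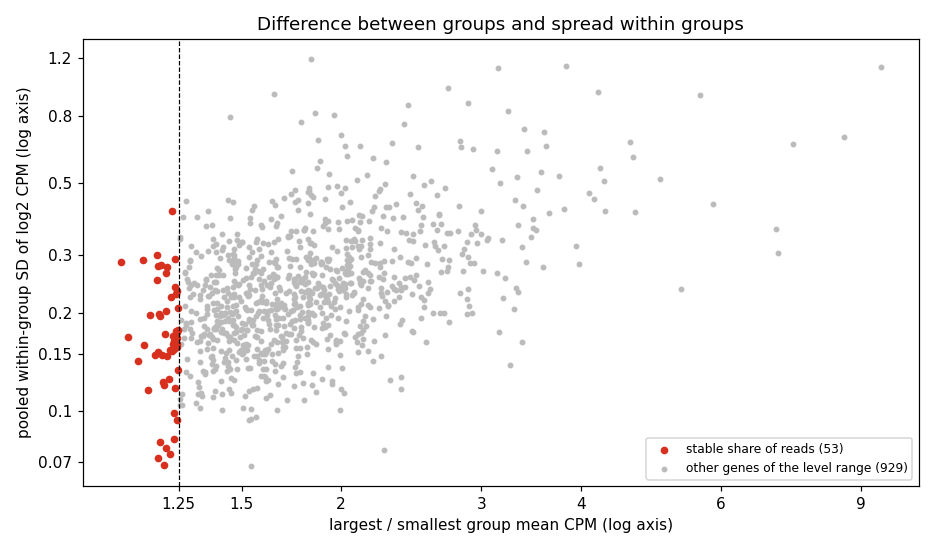
Ratio of the largest to the smallest group mean (x axis, CPM, log axis) against the pooled SD of log2 CPM within groups (y axis, log axis) for 53 members (red) and 929 other genes of the level range (grey); the dashed line is the limit of 25%. The members cover an SD of 0.07 to 0.41, so the group means of a member can lie close while its replicates lie apart.

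How the choice carries over to a library it did not use was read by leaving out each library in turn, choosing the genes again on the other 17 and reading their level in the library left out. The number chosen was 37 to 57, with a median of 49, and between 36 and 51 of them were members. Of 892 such readings, 85.2% were within 25% of the mean over the other libraries, against 58.9% for the other genes of the level range. The share was above that of the other genes in each of 18 libraries. It was highest in parental dark 1, at 94.6% against 63.6% for the other genes, and lowest in parental high light 2, at 70.8% against 58.1%. In bPAC low light 4 it was 72.0% against 39.0%. By the rule, the group means of the other genes lie further apart, so these genes miss a band around the mean over groups more often in any case. The contrast with them is therefore largely built in and does not show how well the choice carries over. The 18 choices share most of their libraries, so no test was made over them.

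**Figure D3:**
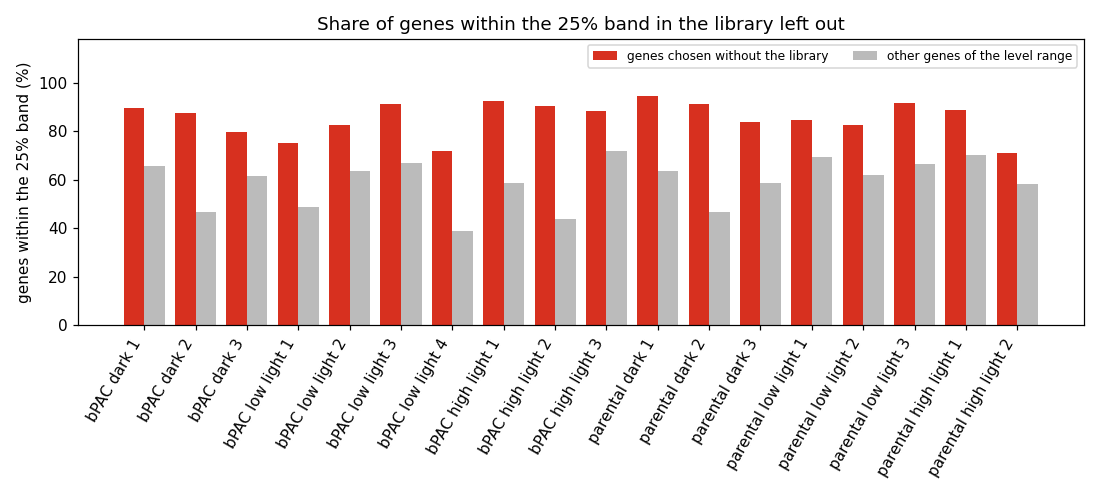
Share of genes (%) whose CPM in a library was within 25% of their mean over the other libraries, for genes chosen by the rule without that library (red) and for the other genes of the level range (grey). The red bars run from 70.8% to 94.6% and the grey bars from 39.0% to 71.7%. The grey genes differ more between groups by the rule.

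Leaving out a library also showed which members depend on it. Of the 53, 7 were chosen in all 18 repeats, among them ENSCAFG00000020066, ENSCAFG00000013232 and ENSCAFG00000007145, and none was chosen in fewer than 9. In a library that had not entered the choice, 6 members were more than 1.5-fold from their mean at least once. The largest deviations were those of ENSCAFG00000004844 and ENSCAFG00000007145 in bPAC low light 4, at -1.05 and -0.83 on the log2 scale. ENSCAFG00000007145 was thus among the genes chosen every time and also among those that deviated most.

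Over pairs of members, the median correlation of deviations from the group means was -0.02 across 18 libraries, with pairs of either sign. The first principal component of these deviations held 37.0% of their variance, with 26 of 53 members on the positive side, and that of the other genes of the level range held 36.2%. On the members' axis bPAC low light 1 and 2 scored 0.14 and 0.14, and bPAC low light 3 and 4 scored -0.09 and -0.19. Libraries at the 2 ends of the axis were the same for the other genes, with bPAC low light 2 at 0.26 and bPAC low light 4 at -0.35. Both sets of scores correlated at r = 0.95 (n = 18 libraries). Each library gives both of its scores from the same depth and preparation. As deviations from group means, the 18 values are not independent. The sign of the axis went with accession order: the first library of a group scored above 0 in 6 of 6 groups, and the third below 0 in 5 of 5 groups that have one, for both sets. Library numbers here follow accession order, and the labels give no batch, so these numbers were not used to pair libraries and their part in the results was not tested. Members with positive and with negative weights were thus about equal in number.

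A ratio of members needs no library scale. With the least fitting gene removed step by step (the geNorm measure, the mean SD of a gene's log2 ratios to the others), the mean SD over 53 members was 0.26, and the last pair left was ENSCAFG00000000642 and ENSCAFG00000013232. Their ratio was 0.322 ± 0.0241 (SD, n = 18 libraries), with a lowest value of 0.282 in parental low light 3 and a highest of 0.368 in parental high light 1. Both ends lie in parental cells, and the bPAC libraries covered 0.285 to 0.345. The SD of the log2 ratio was 0.11, against 0.05 from counting error. Against the members, the mean SD of log2 ratios had a median of 0.25 for a member and 0.40 for another gene of the level range. These SDs run over all 18 libraries, so they include differences between groups. The rule caps those differences for the members only, so this contrast is largely built in. The last pair was picked for its constancy, so the values of its ratio describe it only. Its genes were also the 2 members called in bPAC high light against bPAC low light, both higher. Their group means were 304 against 256 CPM for ENSCAFG00000000642 and 976 against 823 CPM for ENSCAFG00000013232. These calls were lost in 14 and 13 of the 18 repeats without a library. A steady ratio of 2 genes does not show that either gene is steady.

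Shares of reads depend on what the most abundant genes take. In bPAC cells, the 10 genes with most reads in a library held 14.6 ± 0.515% of gene reads in the dark (SD, n = 3), 17.3 ± 1.29% in low light (SD, n = 4) and 19.1 ± 2.00% in high light (SD, n = 3). In parental cells they held 13.6 ± 0.332% in the dark, 13.6 ± 0.246% in low light (SD, n = 3 each) and 13.9 ± 0.545% in high light (SD, n = 2). TMM, a method that sets the scale by the bulk of the genes, gave factors relative to total gene reads of 1.06 ± 0.0149 in bPAC dark, 0.978 ± 0.0323 in bPAC low light and 0.854 ± 0.0664 in bPAC high light (SD, n = 3, 4 and 3). The factors from the 53 genes were 0.999 ± 0.00506, 0.982 ± 0.0159 and 0.998 ± 0.0127 in the same order of groups and between 0.970 and 1.03 in any library. In parental cells TMM gave 0.992 to 1.13. Factors near 1 from the members restate how they were chosen, on shares of total reads. The reads with more than 1 alignment in the bPAC high light libraries came to 41.7% to 44.4% of all reads, against 38.5% to 39.9% in bPAC dark and 38.9% to 44.2% in parental cells; their part in these factors was not tested.

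**Figure D4:**
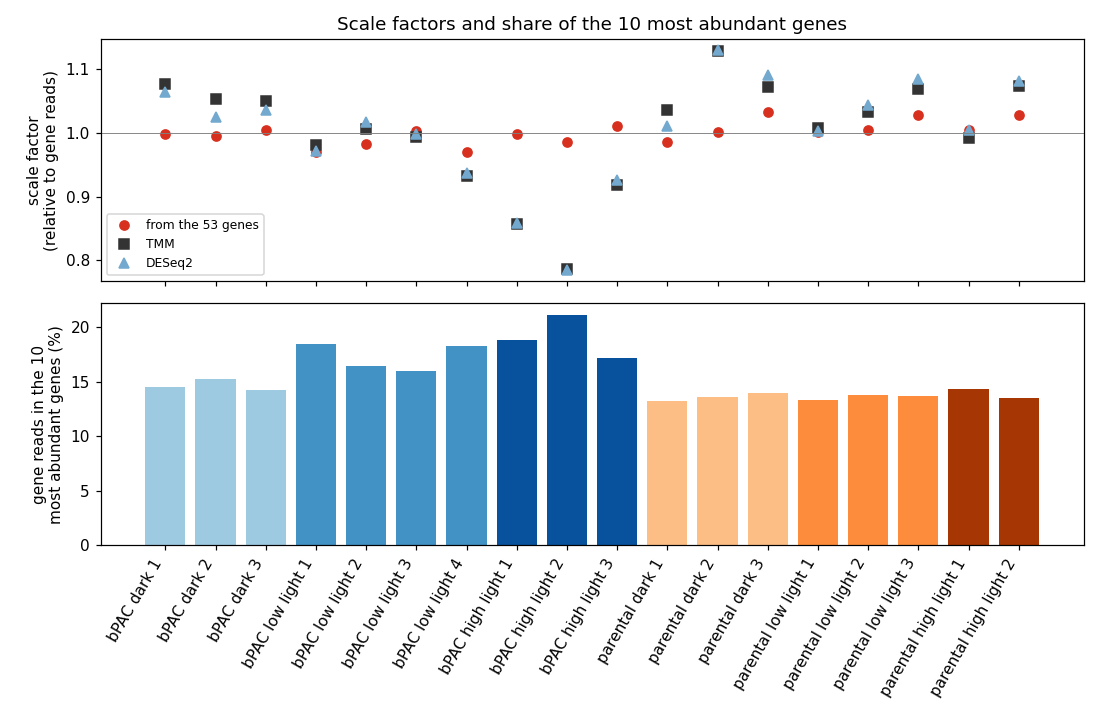
Top, scale factor of each library relative to its gene reads, from the 53 genes (circles), from TMM (squares) and from DESeq2 (triangles); bottom, percent of gene reads in the 10 most abundant genes of each library. The 3 bPAC high light libraries have TMM factors of 0.786 to 0.918 and factors from the 53 genes of 0.985 to 1.01.

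On TMM-scaled CPM the same 53 genes no longer met the rule as a set. Their ratio of largest to smallest group mean had a median of 1.32, met the limit of 25% for 13 and was above 1.5 for 6, and bPAC high light was the highest group for 44 of them. With shares kept close by the rule, the lower TMM factors of bPAC high light raise the members there, so that count largely follows from the choice. The rule applied to TMM-scaled CPM gave 30 genes, of which 12 were members; these 12 are 22.6% of the 53 and 40.0% of the 30. The label of stable genes therefore rests on the scale, and the set is better called genes with a near-constant share of reads. Which scale is nearer to RNA per cell was not tested: the files hold no added standard and no cell numbers.

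Tested with edgeR on the TMM scale in bPAC high light against bPAC dark, the members had a median log2 fold change of 0.31 (range 0.06 to 0.57), while the 8530 tested genes had a median of 0.03. Of the 53, 8 passed the threshold (an edgeR adjusted p under 0.05), each of them higher in high light, against 24.6% of all tested genes. An unadjusted p under 0.05 was reached by 14 members and by 3208 of the 8530 tested genes. The rule keeps the members' shares close in these groups. Their common direction on the TMM scale is therefore nearly fixed by the lower TMM factors of bPAC high light. On the TMM scale the median log2 fold change of the other genes of the level range was 0.28 and 34.7% of them were called, so the shift is not shown to be particular to the members. Over all tested genes the median in this comparison was -0.11 (log2) for those with a mean under 10 CPM, 0.02 from 10 to 100 CPM, 0.22 from 100 to 1000 CPM and 0.54 above 1000 CPM. The part of the 10 most abundant genes in this was not tested.

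The member with the smallest adjusted p was ENSCAFG00000020066, also among the members with the smallest spread within groups. On TMM-scaled CPM it averaged 368 ± 19.7 CPM in bPAC high light and 252 ± 17.6 CPM in bPAC dark (SD, n = 3 each; log2 fold change 0.54, SE 0.14, edgeR adjusted p = 0.00847), against 313 ± 11.3 and 267 ± 15.4 CPM per total gene reads. It kept its call without each library in turn, but without a filter on low counts its edgeR adjusted p was 0.247. With the members as the scale, which centres them on 0 by construction, it was 0.177. Over all alternatives its adjusted p ran from 0.001 to 0.247. ENSCAFG00000013232 was at 1012, 957 and 959 CPM in bPAC high light, against 888, 839 and 832 CPM in bPAC dark, with no overlap. Its log2 fold change on the TMM scale was 0.51 (SE 0.14, edgeR adjusted p = 0.0111), and the call was lost without bPAC dark 2 (edgeR adjusted p = 0.0688) and without bPAC high light 2 (edgeR adjusted p = 0.0527). It was also lost without a filter on low counts and with the members as the scale, and over all alternatives its adjusted p ran from 0.00154 to 0.266. The same gene was called in bPAC high light against bPAC low light (log2 fold change 0.44, SE 0.13, edgeR adjusted p = 0.0324), and that call did not hold in 13 of the 18 repeats without a library. The count of 8 was 1 without bPAC dark 2 or bPAC high light 2, and 2 without parental low light 2. It was 3 without bPAC dark 1, bPAC high light 1, parental dark 1, 2 or 3 or parental low light 3, 4 without bPAC dark 3, and 5 without bPAC low light 2 or parental high light 2.

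In the other comparisons few members were called. Between bPAC low light and bPAC dark 1 member was called, higher in low light, against 35.3% of all tested genes, and the members' median log2 fold change was 0.08. The count was 0 without bPAC dark 2, bPAC dark 3, bPAC low light 1 or bPAC low light 4, and 3 without bPAC low light 2. The member called with all libraries, ENSCAFG00000016085, was also not called without bPAC dark 1 (edgeR adjusted p = 0.0848) or without bPAC low light 3 (edgeR adjusted p = 0.0561). Any call in those repeats was of another member. Between bPAC high light and bPAC low light 2 were called, higher in high light, against 10.2% of all tested genes, with a median of 0.20. Here the count was 2 without bPAC dark 3, bPAC low light 4, bPAC high light 3, parental low light 1 or parental high light 1, and was 0 without any other library. ENSCAFG00000000642, called with all libraries, was not called without bPAC high light 3 (edgeR adjusted p = 0.0503), so the 2 were not the same members there. Between bPAC high light and parental high light 1 was called, higher in bPAC cells, against 12.2%, with a median of 0.26. That count was 4 without bPAC high light 3, and 0 without bPAC dark 2, bPAC high light 1 or 2, parental dark 3, parental low light 2 or parental high light 1 or 2. These comparisons share libraries with one another, so their values are not independent. Since the rule used the means of both groups in each comparison, nothing is read from these counts.

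None of the 53 was called by edgeR in the other 5 comparisons. These were parental low light against parental dark, where 11.4% of all tested genes were called and 1 member had an unadjusted p under 0.05, and parental high light against parental dark, with 0.176% of tested genes called and 0 members at an unadjusted p under 0.05. In parental high light against parental low light 0.0117% of tested genes were called, and in bPAC dark against parental dark 6.53%, with 0 members at an unadjusted p under 0.05 in either. In bPAC low light against parental low light 7.0% of tested genes were called, and 1 member had an unadjusted p under 0.05. Of the 8530 tested genes, 2422, 1284, 1080, 1844 and 1782 had an unadjusted p under 0.05 in these 5 comparisons, in the order given. DESeq2 also called 0 members in each of these 5. Without parental dark 1, edgeR called 1 member in bPAC dark against parental dark. Terms for a different effect of light in the lines called 0 members at the low dose, where 0.0352% of tested genes were called. At the high dose they called 0 members, where 0.504% of tested genes were called. An unadjusted p under 0.05 was reached by 1 and 2 members, against 507 and 1185 of all tested genes, and DESeq2 called 0 members in both.

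**Figure D5:**
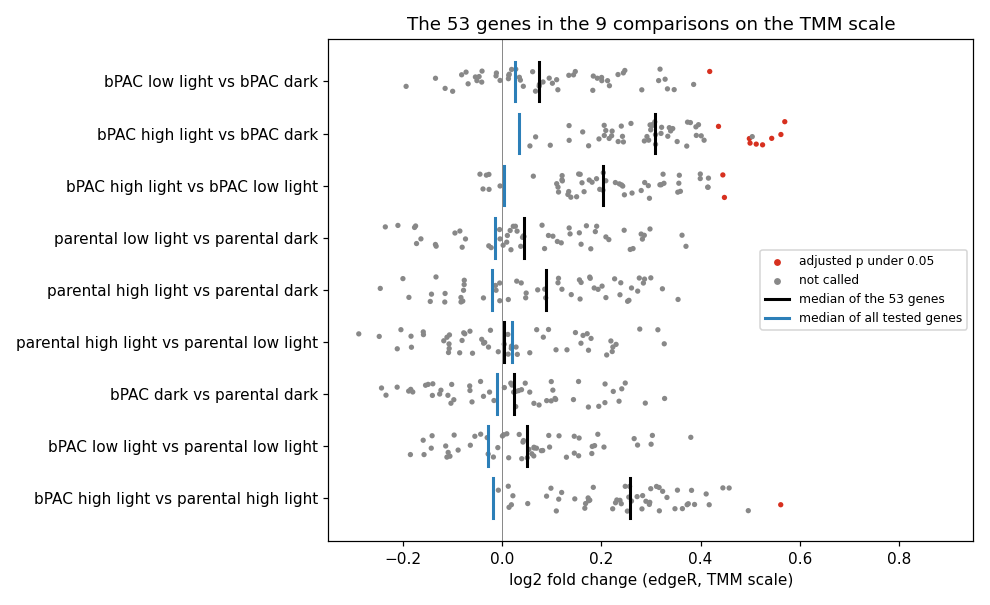
Fitted log2 fold changes of the 53 genes on the TMM scale (x axis) in 9 comparisons, the first-named group over the second; each point is a gene, red where the edgeR adjusted p was under 0.05, black bars are the medians of the 53 genes and blue bars those of all tested genes. For bPAC high light against bPAC dark the 53 points lie above 0, with a median of 0.31 against 0.03 for all tested genes. This direction largely follows from the rule and the TMM factors.

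A missed threshold does not show that a gene is unchanged, so the 95% interval of each fold change was set against a band of 1.5-fold either way. In bPAC dark against parental dark the interval lay inside the band for 48 of the 53, against 11.7% of all tested genes and 35.4% of the other genes of the level range. For bPAC low light against parental low light it was 46, against 15.0% of tested genes and 40.7% of the other genes of the range. In bPAC low light against bPAC dark it was 41 of 53, against 9.36% of tested genes and 24.1% of the other genes of the range, and in parental low light against parental dark 40, against 10.5% and 26.8%. In parental high light, with 2 libraries, it was 31 against dark, with 7.71% of tested genes and 23.9% of the other genes of the range inside, and 35 against low light, with 8.03% and 27.8%. For bPAC high light it was 14 (26.4%) against bPAC dark, where 7.36% of tested genes and 19.3% of the other genes of the range were inside. Against bPAC low light it was 29 (54.7%), with 12.3% and 32.7% inside. Against parental high light it was 12 (22.6%), with 5.28% and 19.4% inside. The width of an interval depends on the level of a gene, so the genes of the same range are the nearer background. The choice of genes with close means in CPM narrows the range of the estimates, but on the TMM scale it does not always centre them on 0. The members' median log2 fold change was 0.31 in bPAC high light against bPAC dark. It was 0.20 against bPAC low light and 0.26 against parental high light. The counts therefore follow from the rule and the TMM factors, describe the set and are not a test of it.

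Used to scale the libraries, the set shifted the fold changes of all genes in a comparison by about the same amount relative to TMM. Between bPAC high light and bPAC dark 2238 genes, 26.2% of those tested, were called with the members as the scale, 454 higher and 1784 lower, against 2097 with TMM, 1083 higher and 1014 lower, and the median log2 fold change of all tested genes was -0.28 in place of 0.03. Between bPAC high light and bPAC low light 12.5% of 1096 calls were higher in high light with the members, and 50.7% of 871 with TMM. Between bPAC high light and parental high light it was 25.1% of 1325 calls with the members, and 53.9% of 1041 with TMM. In bPAC low light against bPAC dark, 41.3% of 2954 calls were higher with the members and 48.8% of 3009 with TMM. In parental low light against parental dark it was 52.4% of 995 and 59.1% of 976. These splits follow from the shift, since the members were chosen to equal total reads, and they are no evidence for either scale.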

How the data were processed

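For each of 18 libraries the authors deposited raw whole-number counts of reads per gene, with 5 rows for reads assigned to no gene, which were left out. The kit was QuantSeq 3′ FWD, per the labels' protocols, and, per the submitters' processing notes, the genome build was CanFam3.1; the sources used here do not name the aligner, the counting program or the annotation. Groups were taken from the labels, which give no batch or pairing. Counts were divided by the gene reads of the library for CPM. Within groups, 19 pairs of libraries differed by more than sampling noise (chi-square 8.69 to 69.0 for each degree of freedom), so each was counted.

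For tests, 8530 genes passed filterByExpr (minimum count 10). All libraries entered 1 model of 6 groups in edgeR 4.0.16 (R 4.3.3; TMM, robust glmQLFit, glmQLFTest). P-values were adjusted by the Benjamini-Hochberg method over all of these genes, and the threshold was 0.05. The SE was obtained by dividing the size of a log2 fold change by the square root of its F. The test was checked on simulated counts with 200 changed genes and the same spread for all genes. That check does not cover a shift of scale between groups or a spread that differs among genes. DESeq2 1.42.0 was an alternative.

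The members and the rules were chosen with earlier results of these data known. Named were the members at the extremes of spread, ratio, level, adjusted p and deviation in a library left out, and the genes nearest the ratio limit; the last pair of the ratio analysis was chosen after its values were seen. Planned gene lists and marker lists were not used, because 0 of the 32220 IDs matched a symbol. Counting error covers reads only, not the spread between cultures.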

Additional observations from a re-analysis of the deposited data

How the results depend on the processing

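The number of members was 30 on TMM-scaled CPM and 30 with DESeq2's size factors (12 and 14 of them among the 53), 21 with a ratio limit of 1.2 and 274 with 1.5, 82 with a level of at least 50 CPM and 28 with 200 CPM. It was 37 to 57 on leaving out 1 library. Chosen after seeing the data, a limit of 1.5-fold on single libraries gave 27. The median SD within groups was 0.156 to 0.17 without 1 library, and the members' share of reads 1.43% to 1.43%; with the ratio limit of 1.5 that share was 7.93%. Readings in a library left out were within 25% of the mean in 76.3% of cases on TMM-scaled CPM and 76.3% with DESeq2's size factors, both added after seeing the data.

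Members called in bPAC low light against bPAC dark were 0 with DESeq2's size factors, 0 with the members as the scale, 0 with no filter on low counts and 0 to 3 without 1 library. In bPAC high light against bPAC dark they were 0 with the members as the scale, 0 with no filter and 1 to 9 without 1 library. In bPAC high light against bPAC low light they were 0 with either, 4 with the DESeq2 test, 0 without bPAC low light 1 and 4, and 0 to 2 without 1 library. In bPAC high light against parental high light they were 0 with either, 3 with the DESeq2 test and 0 to 4 without 1 library, and in bPAC dark against parental dark 0 to 1. In the other 4 comparisons they were 0 to 0 without 1 library. Genes called in parental high light against parental dark were 7 with DESeq2's size factors and 8 with the members as the scale, against 15 with TMM; the DESeq2 test called 135 there and 43 in parental high light against parental low light, where edgeR called 1. With the members as the scale, 0 follows from centring them; the cause of the other changes was not tested.

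No paired analysis was possible because the labels give no replicate numbers; those used here follow accession order. Depth limits the members little; 2 parental high light libraries limit the comparisons with that group.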
